A study of Mus musculus with 24 samples.

Results

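Expression of 10 genes that are induced by the ERK pathway, most of which in turn restrain it, was followed across 4 mouse tumour lines: the MAP kinase phosphatases Dusp1, Dusp4, Dusp5, Dusp6 and Dusp10, the membrane inhibitors Spry2, Spry4 and Spred1, and the transcription factors Etv4 and Etv5. They were taken by gene symbol, and all 10 were found in each line's table, out of 28774 rows (MC38), 27398 (LLC1), 28237 (AKR) and 26146 (Hepa1-6). MC38 is a colon adenocarcinoma line, LLC1 comes from Lewis lung carcinoma, AKR from an esophageal carcinoma, and Hepa1-6 from a hepatocellular carcinoma. In each line, cells with a guide RNA against B2m (sgB2m), the gene of the invariant chain of MHC class I molecules, were set against cells with a non-targeting guide (sgNT), with 3 bulk RNA-seq libraries for each guide and 24 libraries in 8 groups in all. No treatment other than the guide is named, and the cells grew in DMEM with serum. The labels leave unsaid whether each edited population was a clone or a pool, and whether the 3 libraries of a group came from separate cultures, so the p-values measure the spread between these libraries, which may be technical.

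ERK is the last kinase of the cascade that runs from growth factor receptors through Ras, Raf and MEK. Active ERK turns on genes within minutes to hours, and several of them switch the cascade off again. The phosphatases encoded by the Dusp genes remove the phosphates from the activation loops of MAP kinases. Sprouty and Spred proteins act further up, between the receptors and Raf, and Spred1 does so by bringing the Ras inhibitor neurofibromin to the membrane. Etv4 and Etv5 belong to the PEA3 group of ETS factors and are commonly used, with Dusp6 and Spry4, as readouts of ERK signalling in tumour cells. Transcript levels do not measure the phosphorylation of ERK.

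Reads counted per gene came to between 25 and 49.7 M per library. B2m transcript was lower in sgB2m in every line, with a log2 change of -1.78 (MC38), -1.71 (LLC1), -1.57 (AKR) and -1.35 (Hepa1-6) and no overlap between the groups. Of the markers fixed for each line's tissue, 5 of 7 hepatocyte genes averaged 6 or more on the log2 scale in Hepa1-6 (Afp, 17.6), against 1 of 6 intestinal genes in MC38 (Cdx2, Cdh17, Epcam and Krt20 were at 0), 2 of 6 alveolar genes in LLC1 (Nkx2-1 was at 0) and 2 of 6 squamous genes in AKR (Krt5 and Krt6a were at 0). These lists did not set each line apart: 5 of 6 intestinal markers also reached 6 in Hepa1-6 (Cdh17, 14.6), as did 2 of 6 squamous markers in MC38. All 6 T and NK cell markers were at 0 in LLC1, AKR and Hepa1-6, and 5 of 6 were in MC38 (Cd4 averaged 1.39). Of 5 endothelial markers, 0 or 1 reached 6 in each line, and of 6 myeloid markers 1 or 2 did. Summed normalised counts of the endothelial markers were higher in sgB2m of MC38 (409 to 484 against 288 to 338). They were lower in sgB2m of AKR (152 to 175 against 198 to 228) and Hepa1-6 (553 to 609 against 629 to 721), and overlapped in LLC1. Summed normalised counts of 5 fibroblast markers were higher in sgB2m of MC38 (35907 to 37843 against 21595 to 22757, 4 of 5 reaching 6 and Lum at 0). In LLC1 they were also higher (1439.8 to 1556 against 747 to 849.7), where 1 of 5 reached 6, Pdgfra (10.0). The fibroblast sums were higher in sgB2m of Hepa1-6 (692 to 882 against 447 to 558, 2 of 5, with Col1a2 and Lum at 0), and lower in AKR (715 to 748 against 959.7 to 1018, 2 of 5, Lum at 0). Those of 6 myeloid markers were higher in sgB2m of AKR (6842 to 7225 against 2463 to 2585, Adgre1 at 0) and MC38 (1024 to 1146 against 806 to 873, Itgam at 0). In both lines Cd68 was the only myeloid marker to reach 6, at 12.2 in AKR and 9.87 in MC38. The myeloid sums were also higher in sgB2m of Hepa1-6 (462 to 485 against 384 to 458, Adgre1 at 0), and lower in LLC1 (218 to 303 against 383 to 469, Adgre1 at 0). Those of 6 intestinal markers were higher in sgB2m of AKR (954 to 1133 against 502 to 617). Sums over a line's own tissue list were lower in sgB2m of Hepa1-6 (hepatocyte, 355408 to 358156 against 386781 to 393594) and LLC1 (alveolar, 1370 to 1499 against 1575 to 1645). They were higher in AKR (squamous, 658 to 706 against 605 to 618) and overlapped in MC38 (intestinal, 77.0 to 138 against 99.9 to 125). The part of these lists in the results was not tested.

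Values are the deposited normalised counts of each library, and changes are sgB2m minus sgNT on the scale log2(normalised count + 1), ± standard error, with 3 libraries per group. A change was called at an adjusted p under 0.05 in limma's moderated test over all genes tested in that line. In bulk RNA, less transcript in every cell and fewer cells that express a gene cannot be told apart. MC38 had the plainest pattern: 9 of the 10 genes fell and none rose by limma's test; the tenth, Dusp1, was higher at an unadjusted p of 0.0177. Over all 16532 genes tested in MC38, 15.8% fell and 15.9% rose (31.8% either way). In LLC1 the set split, with Dusp1, Dusp6, Dusp10 and Spry2 higher (4 genes) and Dusp4, Dusp5, Spry4, Etv4 and Etv5 lower (5 genes), where 20.7% of 15323 genes tested were higher and 21.8% lower (42.4% either way). In AKR 2 rose (Dusp4 and Dusp10) and 2 fell (Spry2 and Etv5), and 21% of 15882 genes tested rose and 21.9% fell (42.9% either way). With quantile scaling 6 of the 10 rose there (Dusp1, Spred1, Etv4 and Dusp6 joined). The recovered reads were also scaled to each library's total reads and fitted with voom weights. That fit, called voom weights below, thus differs in scaling as well as in weighting. In it 6 rose in AKR as well (Dusp1, Spred1, Etv4 and Dusp5 joined). Without a filter, or without an intensity trend, none of the 10 fell in AKR. In Hepa1-6 6 of 9 tested genes rose (all 5 phosphatases and Spry4) and 1 fell (Spred1), against 18.6% and 19.2% of 14910 genes tested (37.8% either way).

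The median change of the 10 genes was -0.79 in MC38, beside -0.0030 over all genes tested there. In LLC1 it was -0.09 (all genes, 0.0092), although the median size of a change regardless of sign was 0.42 (all genes, 0.23), with rises such as that of Dusp1 (0.61) beside falls such as that of Dusp4 (-1.23). In AKR the median was 0.08 (all genes, 0.0065), and the median size was 0.11 (all genes, 0.26), the smallest of the 4 lines. In Hepa1-6 the median of the 9 tested genes was 0.44 (all genes, -0.0093). The 3 sgB2m libraries lay wholly above or below the 3 sgNT libraries for all 10 genes in MC38 and in LLC1, for 6 in AKR and for 7 of 9 in Hepa1-6; over all genes tested this held for 45% (MC38), 51.8% (LLC1), 52.5% (AKR) and 47.6% (Hepa1-6).

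**Figure D1:**
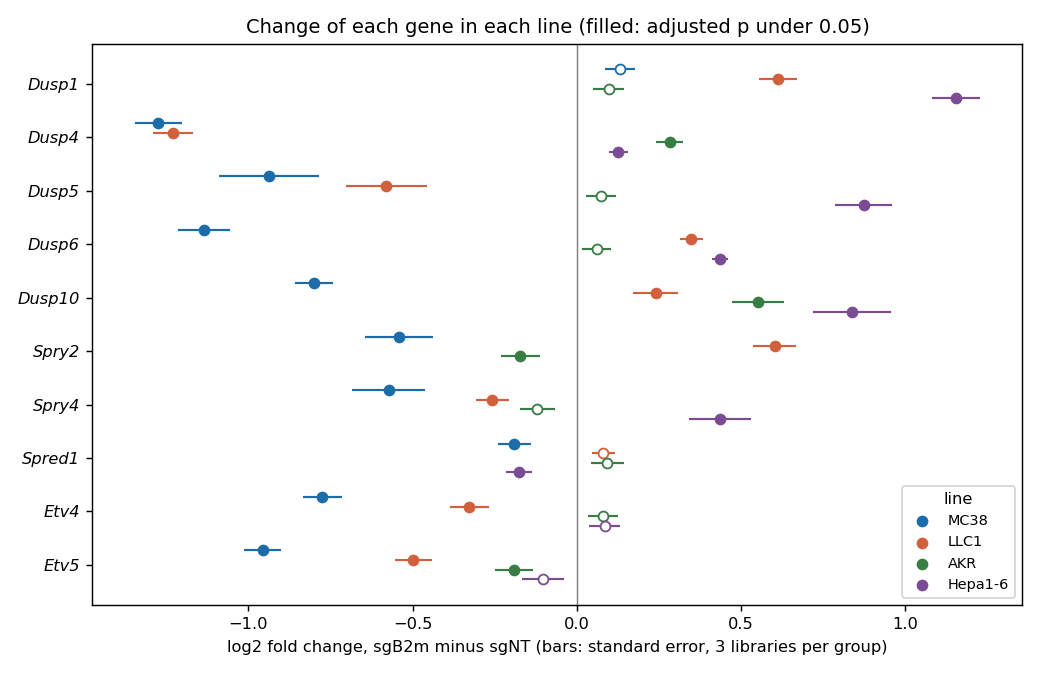
Change of each gene in each line, in log2 units (sgB2m minus sgNT), with bars for the standard error over 3 libraries per group; filled points passed an adjusted p of 0.05. MC38 points lie to the left of 0 for every gene except Dusp1, while Hepa1-6 points lie to the right for 7 genes; Spry2 was not tested in Hepa1-6.

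Dusp1, Dusp4 and Dusp5 encode phosphatases of the nucleus that are made on demand; Dusp5 is specific for ERK, and Dusp1 also acts on p38 and JNK. Dusp6 encodes the ERK-specific phosphatase of the cytoplasm, and Dusp10 one that prefers p38 and JNK. Promoter windows from RefSeq (GRCm38.p6, 250 bases before to 50 after the start site, which is counted as 0) were present for 7 of the 10 genes. The windows of Dusp1 (chr17:26508423-26508722, minus strand), Dusp5 (chr19:53528895-53529194, plus strand) and Dusp6 (chr10:99262981-99263280, plus strand) are shown because these phosphatases parted from one another between the lines and because they hold the 3 kinds of match that were found. Capitals mark, in Dusp1, a full cAMP response element, TGACGTCA, in Dusp5 a PEA3 core followed by a pair of adjacent CArG boxes, the element bound by serum response factor, and in Dusp6 a PEA3 core; the core AGGAAG lies on the minus strand in Dusp5 and Dusp6 and reads CTTCCT here.
Dusp1: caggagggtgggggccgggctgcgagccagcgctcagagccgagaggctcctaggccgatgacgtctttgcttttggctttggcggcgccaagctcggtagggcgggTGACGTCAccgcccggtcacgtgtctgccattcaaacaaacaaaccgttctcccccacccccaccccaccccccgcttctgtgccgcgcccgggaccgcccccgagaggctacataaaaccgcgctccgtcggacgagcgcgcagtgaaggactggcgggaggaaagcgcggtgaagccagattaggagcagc
Dusp5: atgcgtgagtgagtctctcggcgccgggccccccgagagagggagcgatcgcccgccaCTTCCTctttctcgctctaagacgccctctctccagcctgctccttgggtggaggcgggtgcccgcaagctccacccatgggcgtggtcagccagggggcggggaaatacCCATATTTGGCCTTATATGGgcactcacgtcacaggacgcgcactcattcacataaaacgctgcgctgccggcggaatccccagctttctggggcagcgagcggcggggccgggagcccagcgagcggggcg
Dusp6: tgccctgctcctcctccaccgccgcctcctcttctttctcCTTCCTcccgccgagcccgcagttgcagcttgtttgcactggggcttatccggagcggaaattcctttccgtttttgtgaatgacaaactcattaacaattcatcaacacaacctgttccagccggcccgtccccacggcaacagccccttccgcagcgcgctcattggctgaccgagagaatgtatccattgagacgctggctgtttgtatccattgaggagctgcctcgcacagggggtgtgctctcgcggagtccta
The response element lies at -143 to -136 in Dusp1, the CArG boxes at -82 to -73 and -72 to -63 in Dusp5, and the PEA3 cores at -192 to -187 in Dusp5 and -210 to -205 in Dusp6. Searched on both strands over 32851 promoter windows of the same length, TGACGTCA was found in 1.79%, a CArG box in 1.63% and AGGAAG in 35.4%; among the 7 genes with a window these were found in 1 (Dusp1), 1 (Dusp5) and 3 (Dusp5, Dusp6 and Etv5, which has 2 windows, with the match in 1 of them). The AP-1 site TGACTCA was in 5.2% of windows and in none of the 7 genes' windows. The motifs do not overlap one another, and a match is a run of letters, not a measured binding site.

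Dusp4 (ENSMUSG00000031530, chromosome 8, 34807297 to 34819894, plus strand) fell by more than any other of the 10 genes in MC38 and in LLC1. In MC38 its sgNT libraries held 9049, 8849 and 8079.6 normalised counts and its sgB2m libraries 3604, 3237 and 3919.6. The lowest control thus lay far above the highest edited library (log2 fold change -1.27 ± 0.072, adjusted p = 1.43e-06). In LLC1 it went from 3398, 3523 and 3254 to 1340.2, 1410.2 and 1598 (log2 fold change -1.23 ± 0.061, adjusted p = 1.34e-09). The difference between the falls in the 2 lines did not pass its test (-0.045 ± 0.085, adjusted p = 0.712). In AKR Dusp4 rose, from 4906, 4787 and 4979.9 to 5747, 6105 and 6010.0 (log2 fold change 0.28 ± 0.041, adjusted p = 0.000273). In Hepa1-6 it rose by a small step, from 7232, 7439 and 7379 to 8132, 7827 and 8119.5 (log2 fold change 0.13 ± 0.03, adjusted p = 0.00324), a call that was lost without the intensity trend (adjusted p = 0.0696).

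Dusp6 (ENSMUSG00000019960, chromosome 10, 99263231 to 99267489, plus strand) separated MC38 from LLC1. In MC38 its libraries held 2315, 2619 and 2566 in sgNT and 1057, 1106 and 1253 in sgB2m (log2 fold change -1.14 ± 0.08, adjusted p = 6.28e-06). In LLC1 the order was the other way round, with 4956, 4882 and 5024 in sgNT and 6124, 6267 and 6538 in sgB2m (log2 fold change 0.35 ± 0.035, adjusted p = 1.9e-06). The phosphatase of the cytoplasm and the nuclear Dusp4 therefore fell together in MC38 and moved in opposite directions in LLC1. In Hepa1-6, where its counts were highest, Dusp6 rose from 13644, 14063 and 13963 to 19140.3, 18436 and 18765 (log2 fold change 0.44 ± 0.024, adjusted p = 1.26e-09). In AKR the ranges overlapped, at 3516 to 3712 against 3684 to 3834, and the change of 0.06 did not pass the test (adjusted p = 0.291).

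Dusp5 (ENSMUSG00000034765, chromosome 19, 53529109 to 53542431, plus strand) fell in MC38 from 238, 261 and 317 to 149, 136 and 138 (log2 fold change -0.94 ± 0.15, adjusted p = 0.00129). In LLC1 it fell from 349, 282 and 324 to 238, 196 and 204 (log2 fold change -0.58 ± 0.12, adjusted p = 0.00159). Hepa1-6 went the other way: 521, 487 and 434 in sgNT and 884, 864 and 889 in sgB2m (log2 fold change 0.87 ± 0.086, adjusted p = 8.76e-07). AKR held far more Dusp5 than the other lines, 2209 to 2275 in sgNT and 2322 to 2417 in sgB2m, and its change of 0.073 did not pass (adjusted p = 0.228). The exons of Dusp5 share 547 bases with those of an antisense gene, AC137853.2, and whether the authors counted by strand is not given in the sources used here, so reads of the 2 genes may not have been told apart.

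Dusp1 (ENSMUSG00000024190, chromosome 17, 26505590 to 26562128, minus strand), an immediate early gene of stress as well as growth signals, was the one gene of the 10 not called in MC38. Its gene model holds a long transcript that starts well before the RefSeq start site and shares 11 exon bases with Ergic1 on the other strand. It rose most in Hepa1-6, 2.23-fold, from 647, 628 and 664 to 1358, 1390.2 and 1582 (log2 fold change 1.16 ± 0.073, adjusted p = 6.23e-09). In LLC1 it rose from 785, 784 and 817 to 1236, 1205 and 1212 (log2 fold change 0.61 ± 0.058, adjusted p = 1.05e-06). In MC38 every sgB2m library (4596, 4779 and 4722) lay above every sgNT library (4144, 4394 and 4339), but the step was small and missed the threshold (log2 fold change 0.13 ± 0.046, adjusted p = 0.0543). It passed there with a stricter filter on low values (adjusted p = 0.0485) and with the values centred on the median gene (adjusted p = 0.0334). The AKR libraries did not overlap either, at 1886 to 1939.6 against 1994 to 2074, with a change of 0.10 that did not pass (adjusted p = 0.127).

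Dusp10 (ENSMUSG00000039384, chromosome 1, 184013302 to 184075636, plus strand) fell in MC38 and rose in the other 3 lines. Its MC38 libraries held 2605, 2516 and 2714 in sgNT and 1461, 1554 and 1479 in sgB2m (log2 fold change -0.80 ± 0.058, adjusted p = 7.87e-06). Its largest rise was in Hepa1-6, from 253, 212 and 218 to 389, 403 and 427 (log2 fold change 0.84 ± 0.12, adjusted p = 4.07e-05). In AKR it was the largest change of the 10 genes, from 477, 524 and 462 to 749, 676 and 721 (log2 fold change 0.55 ± 0.08, adjusted p = 0.000261). In LLC1 the step was smaller and still passed, with 656 to 707 in sgNT and 775 to 830.4 in sgB2m (log2 fold change 0.24 ± 0.069, adjusted p = 0.0111). The 5 other MAP kinase phosphatases listed (Dusp2, Dusp7, Dusp8, Dusp9 and Dusp16) fell in 5 of 5 cases in LLC1 and in 3 of 5 in MC38. In AKR 3 rose and 1 fell, and in Hepa1-6 2 rose and 1 fell. Over all genes tested, 31.8% (MC38), 42.4% (LLC1), 42.9% (AKR) and 37.8% (Hepa1-6) were called either way. Dusp2, another nuclear phosphatase induced by growth signals, fell in MC38 from 66.0 ± 3.75 in sgNT to 3.53 ± 5.2 in sgB2m (adjusted p = 0.00157) and rose in AKR from 2438 ± 64.8 in sgNT to 4407 ± 390.3 in sgB2m (adjusted p = 2.12e-06).

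**Figure D2:**
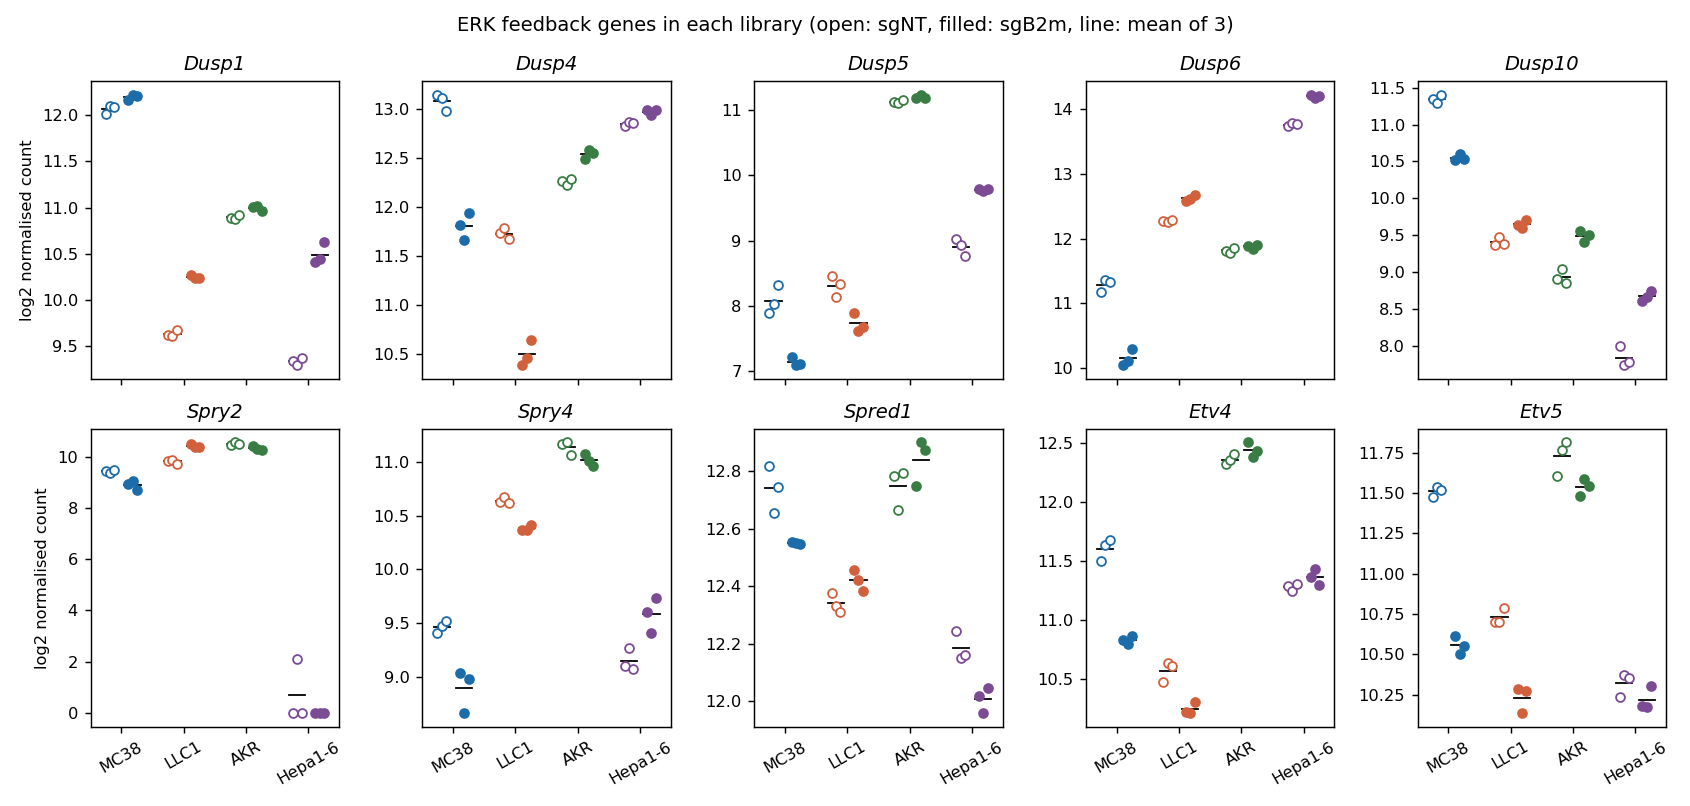
Normalised count of each gene in each library on a log axis, 1 panel per gene, with sgNT and sgB2m side by side for the 4 lines. In MC38 the sgB2m points lie below the sgNT points for 9 genes and above them for Dusp1.

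Spry4 (ENSMUSG00000024427, chromosome 18, 38586247 to 38601415, minus strand) and Spry2 (ENSMUSG00000022114, chromosome 14, 105891947 to 105896819, minus strand) encode Sprouty proteins, which blunt the signal of growth factor receptors. Like Dusp5, Spry4 fell in MC38 and LLC1 and rose in Hepa1-6. In MC38 it fell from 677, 711 and 731 to 524, 404 and 505 (log2 fold change -0.57 ± 0.11, adjusted p = 0.00341). In LLC1 it fell from 1579, 1634 and 1569 to 1319, 1321 and 1360.4 (log2 fold change -0.26 ± 0.05, adjusted p = 0.000798). In Hepa1-6 it rose from 547, 613 and 538 to 777, 677 and 851 (log2 fold change 0.44 ± 0.10, adjusted p = 0.00188). The AKR libraries overlapped (2137 to 2322 against 1999.9 to 2155), and the change of -0.12 did not pass (adjusted p = 0.0962); it did when sgB2m replicate 1 was left out (adjusted p = 0.0381) and with median centring (0.0319).

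Spry2 parted from Spry4 in LLC1. There it rose from 916, 947 and 838 to 1455, 1312 and 1335 (log2 fold change 0.60 ± 0.066, adjusted p = 4.43e-06), while Spry4 fell in the same 6 libraries. In MC38 both Sprouty genes fell, Spry2 from 694, 659.8 and 718 to 487, 523 and 417 (log2 fold change -0.54 ± 0.10, adjusted p = 0.00315). In AKR Spry2 was lower in each sgB2m library (1352, 1272 and 1239.8) than in each sgNT library (1395, 1502 and 1455), with a small change that passed (log2 fold change -0.17 ± 0.059, adjusted p = 0.0355). The AKR call was lost when sgB2m replicate 2 (adjusted p = 0.075) or 3 (0.127) or sgNT replicate 2 (0.125) or 3 (0.0867) was left out, and with a replicate block, no filter, no trend or voom weights (0.0602 to 0.101). Hepa1-6 held next to no Spry2 transcript: 3 reads in sgNT replicate 2 and 0 in the other 5 libraries, so it was not tested there.

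Spred1 (ENSMUSG00000027351, chromosome 2, 117121374 to 117182279, plus strand) varied least among the 10 genes. It fell in MC38 from 7231, 6455 and 6866 to 6007, 6004 and 5989 (log2 fold change -0.19 ± 0.049, adjusted p = 0.015). That call was lost when sgB2m replicate 1 (adjusted p = 0.0523) or 3 (0.0525) was left out and when no intensity trend was fitted (0.0814). In Hepa1-6 it fell from 4853, 4543 and 4582 to 4148, 3981 and 4234 (log2 fold change -0.18 ± 0.039, adjusted p = 0.00222), and was the only one of the 9 tested genes to fall there; without the intensity trend the adjusted p was 0.0512. In LLC1 the libraries did not overlap (5084 to 5324 against 5349.6 to 5616), and the change of 0.08 did not pass (adjusted p = 0.0808; 0.0404 without sgB2m replicate 3, 0.0228 with quantile scaling and 0.0109 with voom weights). In AKR the libraries overlapped, and the change of 0.093 did not pass (adjusted p = 0.173; 0.0153 without sgB2m replicate 1, 0.00625 with quantile scaling and 0.0473 with voom weights). Of the 6 listed relatives (Spry1, Spry3, Spred2, Spred3, Il17rd and Etv1), all 5 tested in LLC1 rose, with a median change of 0.34. Spry1 led them there, from 599.8 ± 45.4 in sgNT to 996 ± 132 in sgB2m (adjusted p = 1.86e-05). In AKR 1 of 5 tested relatives rose and 2 fell (median -0.15), and in Hepa1-6 2 of 4 rose (median 0.26). The shares of all genes called either way were 31.8% (MC38), 42.4% (LLC1), 42.9% (AKR) and 37.8% (Hepa1-6). In MC38 2 of 4 rose and 1 fell (median 0.29), and Il17rd, whose protein also inhibits growth factor receptor signals, rose from 218 ± 13.1 in sgNT to 389 ± 31.1 in sgB2m (adjusted p = 0.000656) in the line where Spry2, Spry4 and Spred1 fell.

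Etv5 (ENSMUSG00000013089, chromosome 16, 22381309 to 22439719, minus strand) and Etv4 (ENSMUSG00000017724, chromosome 11, 101769742 to 101785371, minus strand) encode the PEA3 factors. Etv5 fell in 3 of the 4 lines. In MC38 it went from 2843, 2976 and 2935 to 1567, 1449 and 1498 (log2 fold change -0.96 ± 0.056, adjusted p = 1.83e-06). In LLC1 it went from 1665, 1663 and 1764 to 1249, 1125 and 1234 (log2 fold change -0.50 ± 0.057, adjusted p = 7.03e-06). The AKR step was smaller, from 3115, 3481 and 3596 to 2859, 3074 and 2980.1 (log2 fold change -0.19 ± 0.059, adjusted p = 0.0222). This call did not survive leaving out sgB2m replicate 3 (adjusted p = 0.0572), sgNT replicate 2 (0.0788) or sgNT replicate 3 (0.0948), nor no filter, quantile scaling, no trend or voom weights (0.0605 to 0.0944). In Hepa1-6 the ranges overlapped (1208 to 1323 against 1153 to 1266), and the change of -0.10 did not pass (adjusted p = 0.242).

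Etv4 fell beside Etv5 in MC38, from 2905, 3184 and 3277 to 1827, 1779 and 1863 (log2 fold change -0.77 ± 0.06, adjusted p = 1.23e-05). It fell in LLC1 from 1419, 1592 and 1559.6 to 1192, 1186 and 1262 (log2 fold change -0.33 ± 0.059, adjusted p = 0.000416). Both PEA3 genes thus fell in LLC1 while Dusp6, often read out beside them, rose in the same libraries. In AKR (5120.2 to 5432 against 5334 to 5823) and Hepa1-6 (2438 to 2532 against 2526 to 2762) the Etv4 libraries overlapped, and changes of 0.079 and 0.085 did not pass (adjusted p = 0.19 and 0.173).

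Whether the change itself differed between lines was tested in 1 model of the 24 libraries, over 12674 genes tested in all 4 lines. The interaction of line and guide passed for all 9 genes that could be entered (every gene but Spry2), with adjusted p-values between 1.31e-14 (Dusp6) and 0.000184 (Spred1); 69.8% of all genes passed the same test. Differences in change between pairs of lines, adjusted over genes and pairs together, passed in 45 of the 54 comparisons. The change in MC38 was lower than that in each of the other 3 lines for 8 of the 9 genes per line, and in no gene was the change in MC38 higher by this test. The exceptions were Dusp4 against LLC1, given above, Dusp1 against AKR (0.034 ± 0.068, adjusted p = 0.728) and Spred1 against Hepa1-6 (-0.013 ± 0.064, adjusted p = 0.894). Over all genes, 40.4% passed in MC38 against LLC1, 46.8% against AKR and 38.4% against Hepa1-6.

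The widest gaps were those between MC38 and Hepa1-6, with differences of -1.81 ± 0.14, adjusted p = 5.56e-10 for Dusp5 and -1.64 ± 0.10, adjusted p = 1.13e-11 for Dusp10. LLC1 and Hepa1-6 differed for 8 of 9 genes (7 lower in LLC1), where 44.6% of all genes did; the exception was Dusp6, with a difference of -0.087 ± 0.07, adjusted p = 0.344. LLC1 and AKR differed for 7 of 9 genes, 5 of them lower in LLC1 (39.8% of all genes). AKR and Hepa1-6 differed for 6 of 9, 5 of them lower in AKR (41.8% of all genes). Spry2 was entered in a model of MC38, LLC1 and AKR alone, chosen after the data were seen. Its change differed between the 3 lines (adjusted p = 2.05e-07, a test passed by 60.3% of 13838 genes), by -1.14 ± 0.11 between MC38 and LLC1 and by 0.77 ± 0.11 between LLC1 and AKR.

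Levels in the control libraries, given as reads per 1000000 counted reads (RPM), differed widely between the 4 lines. They are descriptions, since each line's table was normalised on its own. AKR ranked highest for 6 genes: Dusp5 at 71.3 ± 1.04 (SD, n = 3), Spry2 at 46.1 ± 1.47, Spry4 at 71.6 ± 3.63, Spred1 at 219 ± 11.0, Etv4 at 167 ± 3.64 and Etv5 at 108 ± 7.11 RPM. MC38 ranked highest for Dusp1 (120.5 ± 4.39) and Dusp10 (73.3 ± 2.48). Hepa1-6 ranked highest for Dusp6 (488 ± 7.06) and Dusp4 (258 ± 3.52). MC38 had the lowest Dusp6 (70.2 ± 4.95), Dusp5 (7.63 ± 1.15) and Spry4 (19.8 ± 0.823), and Hepa1-6 the lowest Dusp1 (22.7 ± 0.52), Dusp10 (8.0 ± 0.804), Spred1 (164 ± 6.51) and Etv5 (44.9 ± 2.09).

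Dusp1 ran in the order MC38, AKR (60.7 ± 0.737 RPM), LLC1 (28.8 ± 0.769) and Hepa1-6. Dusp4 ran from Hepa1-6 through MC38 (243 ± 14.5) and AKR (155 ± 3.11) to LLC1 (123 ± 4.32); on the scale of normalised counts MC38 came first. Dusp5 ran from AKR through Hepa1-6 (16.9 ± 1.64) and LLC1 (11.5 ± 1.29) to MC38. Each of these neighbours was apart in all 3 of its libraries. Dusp6 ran from Hepa1-6 through LLC1 (179.6 ± 3.44) and AKR (115 ± 2.88) to MC38, and Dusp10 from MC38 through LLC1 (24.5 ± 0.866) and AKR (15.5 ± 1.04) to Hepa1-6, again without overlap. Spry2 ran from AKR through LLC1 (32.6 ± 1.92) and MC38 (19.4 ± 0.728) to Hepa1-6, where it was close to 0. Etv5 ran from AKR through MC38 (81.9 ± 2.42) and LLC1 (61.5 ± 2.3) to Hepa1-6, also without overlap.

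Neighbours that overlapped were few. Spry4 ran from AKR through LLC1 (57.8 ± 0.98 RPM) to Hepa1-6 (19.9 ± 1.51) and MC38, and the last 2 overlapped and changed places on the scale of normalised counts. In Spred1, MC38 (192 ± 9.63) and LLC1 (188 ± 4.61) overlapped. In Etv4, MC38 (87.6 ± 5.75) and Hepa1-6 (87.5 ± 1.37) overlapped, above LLC1 (55.2 ± 3.2).

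Levels of different genes were compared per kilobase of merged exons (GENCODE M21, which may not be the authors' annotation). Dusp4 led in MC38, at 88.7 ± 5.31 RPKM (RPM per kilobase) in sgNT, and in AKR, at 56.7 ± 1.14. Dusp6 led in Hepa1-6, at 156 ± 2.25, and in LLC1, at 57.3 ± 1.1. The lowest were Dusp5 in MC38 (3.09 ± 0.465) and LLC1 (4.67 ± 0.521), Dusp10 in AKR (5.1 ± 0.343) and Spry2 in Hepa1-6.

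**Figure D3:**
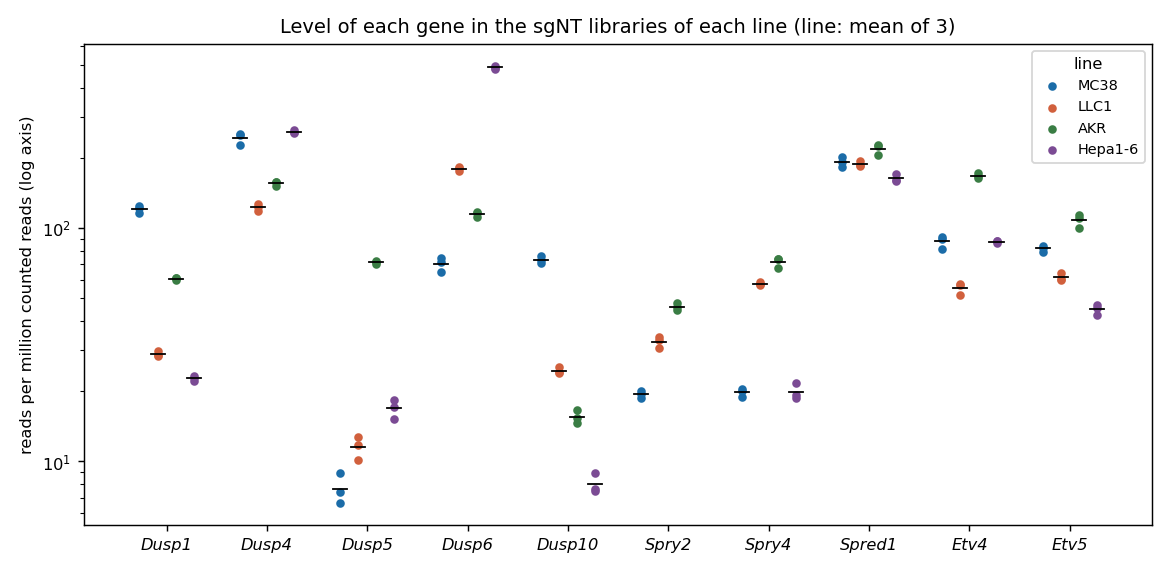
RPM in the sgNT libraries of each line, on a log axis, with points for the 3 libraries of a line. AKR is highest for 6 of the 10 genes; Spry2 in Hepa1-6 is not drawn because its mean is below 1.

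Across the 24 libraries, with each gene's values centred on the mean of its line, the 9 genes tested in all lines formed 36 pairs, with Pearson's r between -0.37 and 0.90. These values are descriptions: the libraries share lines, guides and normalisation. Etv4 and Etv5 (0.90) and Dusp4 and Etv4 (0.90) were most alike, followed by Dusp5 and Spry4 (0.88), Dusp4 and Etv5 (0.87) and Dusp6 and Dusp10 (0.81). The 21 pairs without Dusp1 and Spred1 ran from 0.30 to 0.90. Spred1 was least like the others, with its 8 pairs between -0.37 and 0.37, and the 8 pairs of Dusp1 ran from -0.37 (to Etv5 and to Spred1) to 0.61 (to Dusp10). With values centred on each group of 3, so that only the scatter between replicates remained, all 36 pairs lay between -0.59 and 0.44, and Etv4 and Etv5 fell to 0.09. The high values on the first scale were thus not seen in the scatter between replicates.

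**Figure D4:**
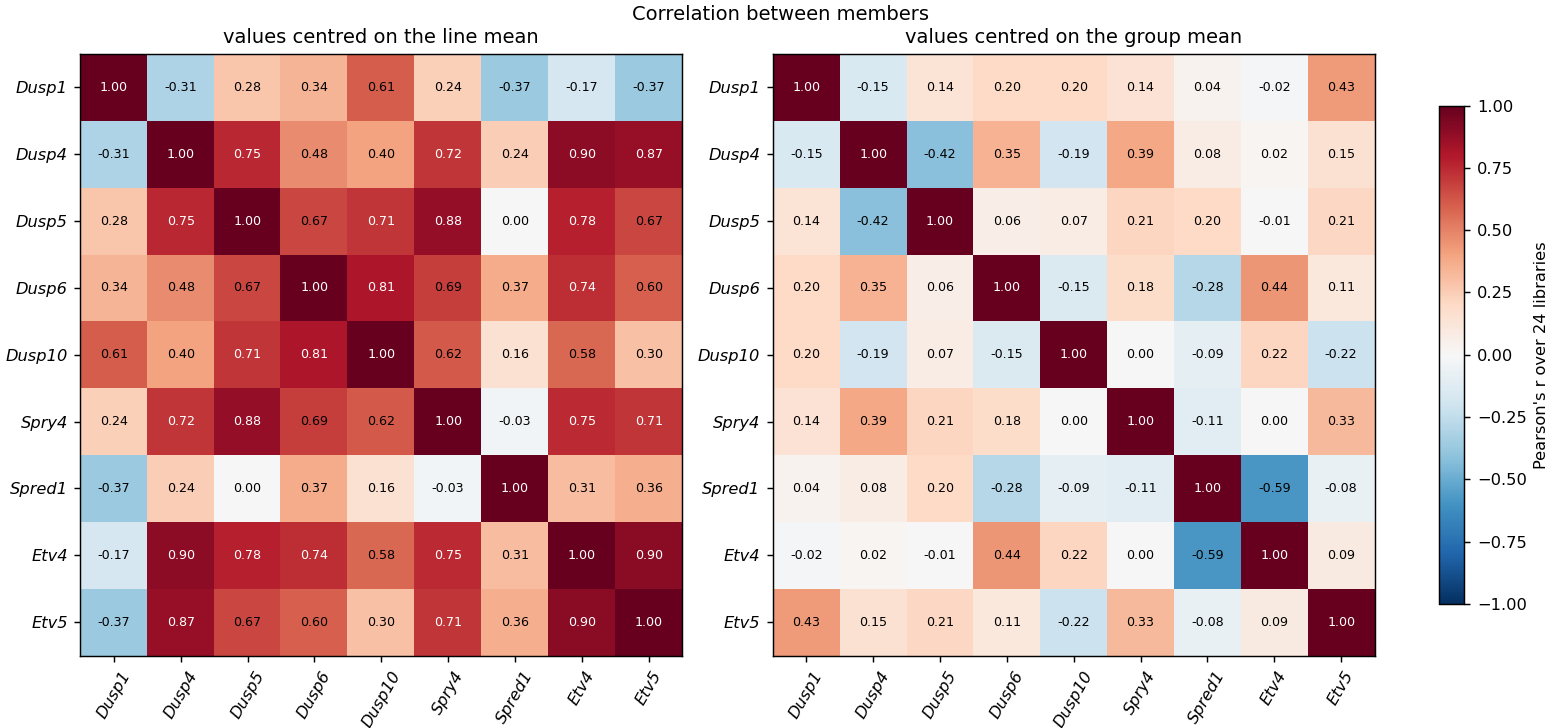
Pearson's r between pairs of 9 genes over 24 libraries, with values centred on the mean of the line (left) or of the line and guide (right). On the left Etv4, Etv5, Dusp4, Dusp5, Dusp6, Dusp10 and Spry4 form a block of positive values and Dusp1 and Spred1 lie outside it. On the right all pairs lie between -0.59 and 0.44.

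Among 10114 genes averaging 6 or more on the log2 scale in every line, those most like Dusp6 over the same 24 centred values were Pi4k2b (r = 0.96), Rap1b (0.94), Wwtr1 (0.94), Pxdc1 (0.92) and Ctxn1 (0.92). These were picked as the highest of many correlations, so a high r was set by the choice. Ctxn1 changed by -1.54 (MC38), 0.57 (LLC1), 0.23 (AKR) and 0.62 (Hepa1-6), and all but the AKR value passed. Rap1b changed less, by -0.29 (MC38), 0.033 (LLC1), 0.060 (AKR) and 0.13 (Hepa1-6). Its LLC1 and AKR values did not pass (adjusted p = 0.451 and 0.28). Those most like Spry4 were Col18a1 (0.93), Med26 (0.89), Tnfrsf12a (0.88), Dusp5 (0.88) and Cdk17 (0.87). Tnfrsf12a, the receptor of the cytokine TWEAK, changed by -0.80 (MC38), -0.74 (LLC1), -0.013 (AKR) and 0.62 (Hepa1-6), and all but the AKR value passed.

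Other genes known to rise with ERK output (20 listed, immediate early genes and transcriptional signature genes among them) did not follow the 10 genes in every line. Over all genes tested, the shares higher and lower were 18.6% and 19.2% in Hepa1-6, 20.7% and 21.8% in LLC1, 15.9% and 15.8% in MC38, and 21% and 21.9% in AKR. In Hepa1-6 all 17 tested rose, with a median change of 1.29, and the leading one was Fosb, a subunit of AP-1, which rose from 78.4 ± 23.6 in sgNT to 3113 ± 23.2 in sgB2m (adjusted p = 1.51e-12). In LLC1 12 of 17 fell and 2 rose, with a median of -0.76, although Dusp1, Dusp6, Dusp10 and Spry2 rose there; Egr1, an immediate early transcription factor, fell from 2168 ± 86.1 in sgNT to 916 ± 75.1 in sgB2m (adjusted p = 2.28e-09), and Fos rose from 895 ± 65.5 in sgNT to 1508 ± 88.6 in sgB2m (adjusted p = 6.47e-07). In MC38 11 of 19 fell and 5 rose (median -0.26), with Egr3 falling from 284 ± 40.7 in sgNT to 74.7 ± 14.4 in sgB2m (adjusted p = 6.23e-05). Fos rose there from 332 ± 51.8 in sgNT to 671 ± 66.8 in sgB2m (adjusted p = 0.000299), and Egr1 and Epha4 were also among those that rose. In AKR the counts were the same as in MC38, 11 of 19 lower and 5 higher (median -0.17). Of the 10 feedback genes 2 fell in AKR, near the 21.9% of all genes, and neither call held in every alternative fit. Vgf, which encodes a secreted neuropeptide precursor, fell there from 929 ± 44.3 in sgNT to 401 ± 26.7 in sgB2m (adjusted p = 1.12e-06).

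The kinases and adaptors of the ERK cascade itself (26 listed) are read here against the share of all tested genes that was called either way, 31.8% (MC38), 42.4% (LLC1), 42.9% (AKR) and 37.8% (Hepa1-6), as are the lists that follow. In MC38 7 of 25 rose and 4 fell, and Map2k1, the gene of MEK1, fell from 2664 ± 278 in sgNT to 1888 ± 63.2 in sgB2m (adjusted p = 0.000912). In LLC1 3 of 26 rose and 8 fell, near the share over all genes, with Srf, the gene of serum response factor, falling from 1247 ± 55.0 in sgNT to 838 ± 102 in sgB2m (adjusted p = 3.73e-05). In AKR 3 rose and 13 of 26 fell, led by Mknk1, the gene of an ERK-activated kinase, from 3463 ± 144 in sgNT to 1990.0 ± 25.1 in sgB2m (adjusted p = 6.71e-07). In Hepa1-6 7 of 25 rose and 4 fell, and Sos2, the gene of a Ras exchange factor, rose from 1270.3 ± 88.6 in sgNT to 1915 ± 77.9 in sgB2m (adjusted p = 1.59e-06).

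Of 15 receptor tyrosine kinases listed, 5 of 13 fell and 3 rose in MC38, 5 of 12 fell and 3 rose in LLC1, 1 of 12 fell and 4 rose in AKR, and 1 of 12 fell and 6 rose in Hepa1-6. The 5 called in AKR were near the 42.9% of all genes. Egfr, the gene of the EGF receptor, was at an end of the list in 3 lines. It fell in MC38 from 99.6 ± 22.6 in sgNT to 9.54 ± 4.51 in sgB2m (adjusted p = 0.000299) and in AKR from 1236 ± 126 in sgNT to 812 ± 120.0 in sgB2m (adjusted p = 0.000853). In LLC1 it fell as well, from 618 ± 48.2 in sgNT to 455 ± 11.7 in sgB2m (adjusted p = 0.000613). In Hepa1-6 it rose from 4829.6 ± 39.8 in sgNT to 7382 ± 119 in sgB2m (adjusted p = 4.51e-10). Pdgfra, a receptor of PDGF also listed among the fibroblast markers above, rose in MC38 from 4225 ± 454 in sgNT to 6732 ± 112 in sgB2m (adjusted p = 7.65e-05) and in LLC1 from 731 ± 59.3 in sgNT to 1367 ± 74.4 in sgB2m (adjusted p = 1.89e-07).

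Among 14 further negative regulators of Ras and receptors, 2 of 13 rose and 3 fell in MC38, with Erf, an ERK-controlled repressor, falling from 3642 ± 272 in sgNT to 2363 ± 346 in sgB2m (adjusted p = 0.000943). In LLC1 3 of 13 rose and 7 fell, in AKR 4 of 14 rose and 3 fell, with Nf1, the gene of neurofibromin, falling from 8709 ± 576 in sgNT to 6209.6 ± 1033 in sgB2m (adjusted p = 0.00209), and in Hepa1-6 2 of 13 rose and 3 fell. The 5 of 13 called in MC38 and in Hepa1-6 were near the shares over all genes, 31.8% and 37.8%. The list of JNK and p38 pathway kinases holds the MAP kinases that Dusp1 and Dusp10 act on, and kinases above and below them. It gave 4 of 10 higher and 2 lower in MC38, and 2 of 10 higher and 2 lower in LLC1. In AKR 5 of 11 were higher and 1 lower, and in Hepa1-6 1 of 8 was higher. Map2k3, a p38 activator, fell in MC38 from 6448 ± 319 in sgNT to 3978 ± 74.4 in sgB2m (adjusted p = 6.7e-06), and Map2k6, another, rose in Hepa1-6 from 826 ± 60.1 in sgNT to 1427 ± 65.2 in sgB2m (adjusted p = 2.73e-07). Map2k7 was called higher in MC38, but its normalised counts were 0, 0 and 78.3 in sgNT and 90.0, 123 and 113 in sgB2m, so 1 control library lay close to the edited ones and the other 2 held no read. Over all 7 lists, the number of genes higher in MC38 went from 23 to 15 when sgB2m replicate 3 was left out.

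**Figure D5:**
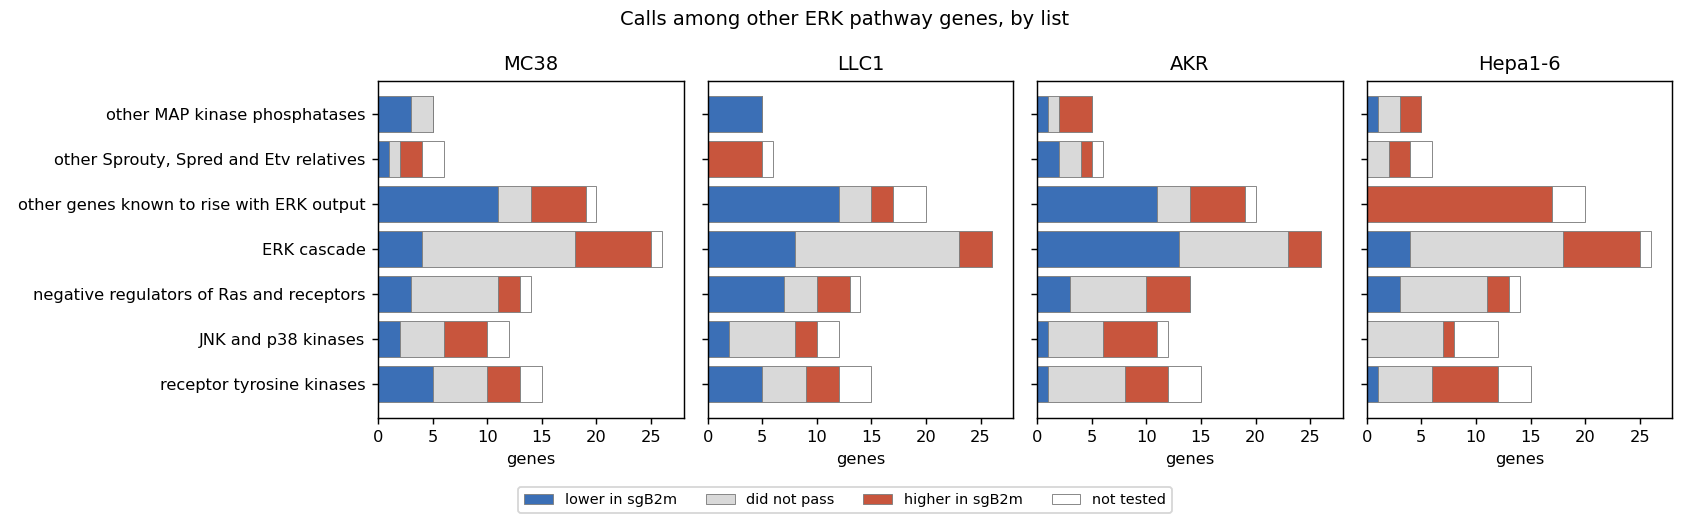
Number of genes of each of the 7 lists that were lower in sgB2m, did not pass, were higher or were not tested in each line, as stacked bars over the genes listed. In Hepa1-6 the 17 tested genes known to rise with ERK output are all higher, while in LLC1 12 of 17 are lower.

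The 10 genes lie on 10 different chromosomes, so none share a neighbourhood. Spred1 lies on chromosome 2, as does the edited gene B2m (122147686 to 122153083). In the lines where Spred1 fell, the median change of its 20 nearest tested genes was 0.03 (MC38) and 0.12 (Hepa1-6). The part of this position in the changes of Spred1 was not tested. The median change of the 20 tested genes nearest to each ran from -0.26 to 0.27 over all genes and lines. In MC38 the median of all tested genes on chromosome 1 was 0.23, and Dusp10, which lies there, fell. In the same line the median on chromosome 18 was -0.21. There 9 of the 20 nearest neighbours of Spry4 fell and 2 rose, where 15.8% of all genes tested fell and 15.9% rose. In LLC1, 9 of the 20 nearest to Dusp6 rose and 2 fell (median 0.24), beside its own rise. Of those nearest to Etv5 in LLC1, 7 fell and 0 rose (median -0.19), beside its own fall. Over all genes in LLC1, 20.7% rose and 21.8% fell. In Hepa1-6 Dusp6 rose while 9 of its 20 nearest genes fell and 3 rose (all genes, 19.2% and 18.6%). Dusp5 rose there too, while 10 of its 20 nearest fell and 6 rose. In AKR 10 of the 20 nearest to Etv4 rose and 1 fell, and 10 of those nearest to Dusp6 fell and 3 rose. The changes of Etv4 and Dusp6 did not pass there (all genes in AKR, 21% rose and 21.9% fell). The part of the neighbourhood in these results was not tested.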

How the data were processed

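RNA-seq values of 24 libraries were taken from 1 deposited table per line. The submitters' processing notes name the build mm10 and the tools STAR, DESeq2 and FastQC 0.11.5; the counter, its annotation and its strand setting are not given in the sources used here. The deposited values are on a log2 scale: unlogged and less a pseudocount of 1, they were whole multiples of 1 step per library within 0.05 reads, so the authors' unit was taken as log2(count divided by a size factor + 1), normalised within each line. Adding 1 draws the changes of weakly expressed genes toward 0.

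Genes that reached 3.5 on the log2 scale in 3 or more of a line's 6 libraries were tested with limma 3.58.1 (R 4.3.3), two-sided, with an intensity trend and no covariate, and Benjamini-Hochberg adjustment over all genes tested. The code was tested on simulated data. Replicates of a group differed by more than counting noise (chi-square per gene 4.08 to 27.4), so none was counted as a repeat of another. The design assumed values of this kind. A fit of the recovered reads with voom weights was an alternative, and it scaled each library to its total reads in place of the size factor. Other alternatives were a replicate block, a stricter filter and none, a pseudocount of 8, median and quantile scaling, no trend, and leaving out each library.

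The 10 genes, the 7 lists and the tests were chosen with earlier results of these data known. Besides the 10 genes, the text names from each list the called gene with the highest or lowest change in a line. Some of these genes are also given in other lines. Marker lists (hepatocyte, squamous, intestinal, alveolar, myeloid, T and NK, endothelial, fibroblast) served to check the lines; genes were named most like another by the 5 highest correlations.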

Additional observations from a re-analysis of the deposited data

Results flagged for a closer look

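The change between sgB2m and sgNT differed between the 4 lines for each of the 9 genes that could be tested in all of them, by the interaction term of limma's fit, which 69.8% of all 12674 genes also passed. Among the phosphatases the adjusted p was 1.31e-14 for Dusp6, whose change was -1.14 in MC38 and 0.44 in Hepa1-6, 3.05e-14 for Dusp4 (-1.27 in MC38 and 0.28 in AKR), 8.49e-12 for Dusp1 (0.10 in AKR and 1.16 in Hepa1-6), 1.74e-11 for Dusp10 (-0.80 and 0.84 in MC38 and Hepa1-6) and 7.85e-10 for Dusp5 (-0.94 and 0.87 in the same lines). For the PEA3 factors it was 6.5e-10 for Etv4, which changed by -0.77 in MC38 and 0.085 in Hepa1-6, and 1.36e-08 for Etv5 (-0.96 and -0.10). For the inhibitors it was 1.23e-06 for Spry4, which changed by -0.57 in MC38 and 0.44 in Hepa1-6, and 0.000184 for Spred1, whose changes spanned -0.19 in MC38 to 0.093 in AKR.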

How the results depend on the processing

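No member's change reversed under any alternative: 510 of 546 kept their direction and side of the threshold, as did all 261 interaction tests. In AKR the number of the 10 genes that fell, 2, became 0 without a filter, without the trend or with voom weights and 1 with quantile scaling. It ran from 0 to 3 when 1 library was left out. The number that rose in AKR, 2, became 6 with quantile scaling and 6 with voom weights, a fit that also scaled by total reads. In MC38 the number that rose, 0, became 1 (Dusp1) with the stricter filter and with median centring, and the number that fell, 9, ran from 8 to 9 with 1 library left out. In Hepa1-6 the number that fell, 1, became 0 without the trend, and the genes of the 7 lists that fell, 9, became 5. With 1 library left out, genes of the 7 lists higher in MC38 (23) ran from 15 to 27. The causes were not tested. Replicate numbers were not found to pair samples: same-numbered deviations correlated between -0.028 and 0.051, 0 of 12 over 0.1, and all 3 matched best by number only in LLC1. With a replicate block the falls in AKR went from 2 to 1 (Spry2 lost, adjusted p = 0.0624), 9 genes still fell in MC38, and 41 of 54 line differences passed. The depth, 25 M reads or more per library, left Spry2 in Hepa1-6 at 3 reads or fewer.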
